A study of Mus musculus with 31 samples.

Results

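The 38 genes described here encode the proteins that bring glucose into the cell, break it down to lactate, store it as glycogen or send it into the pentose phosphate branch. They were taken by gene symbol from a table of 24411 entries. All 38 are in it, and all 38 passed the filter on low counts that left 12337 genes for testing. They fall into 7 roles: glucose entry (3 genes), upper glycolysis with its regulators (12), lower glycolysis to lactate (8), lactate export (2), pyruvate dehydrogenase and its kinases (4), glycogen (5) and the pentose phosphate branch (4).

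The data are 9 RNA-seq libraries, 3 per group, from Ly6C-hi monocytes, the inflammatory monocytes of the mouse. The groups are monocytes from healthy mice (healthy blood), from the circulation of mice carrying a subcutaneous Lewis lung carcinoma (LLC blood) and from the tumors themselves (LLC tumor). LLC is a transplantable mouse lung carcinoma cell line. All mice are C57BL/6J by the labels, no treatment is named for any group, and the same sort gate was used for all (CD11b+, Ly6G-, Ly6Chi, MHC-II-). The labels give neither the age of the mice nor how many mice stand behind a library, and they do not say that libraries of a group came from separate mice. The p-values therefore measure the spread between these libraries, which may be technical. The other 22 of the 31 samples of the series hold chromatin assays and were not analysed here.

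Glycolysis splits glucose into pyruvate. Hexokinase traps the sugar by phosphorylating it, phosphofructokinase commits it to breakdown, and lactate dehydrogenase turns pyruvate into lactate, which leaves through monocarboxylate transporters. Glucose-6-phosphate can instead be stored as glycogen or enter the pentose phosphate pathway, whose first enzymes make NADPH, the reductant that phagocytes use for the oxidative burst. Many glycolytic genes are textbook targets of the hypoxia-inducible factor HIF, and activated macrophages are known for high glycolysis.

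Total counts lay between 10457478 and 20706410 per library, so that 3 counts, the floor used here, are 0.145 to 0.287 CPM (counts scaled to a fixed library total). The 9 monocyte markers, Ly6c2 and Ccr2 among them, were present in every group. Their summed level was 36897 to 41410 CPM in healthy blood, 27110 to 30929 in LLC blood and 14654 to 18839 in LLC tumor. Lyz2 alone had means of 27021, 17289 and 7912 CPM in these groups. In LLC tumor against LLC blood, 7 of the 9 fell, Ly6c2 and Ccr2 among them, 1 rose (Itgam) and 1 did not pass. The median log2 fold change of the list was -0.90. In LLC blood against healthy blood, 1 rose (Itgam), 1 fell (Lyz2) and 7 did not pass. LLC tumor 1 stood apart from the other tumor libraries: across genes, its log2 CPM correlated with theirs at 0.957 and 0.962, against 0.986 between those. Fibroblast markers (Col3a1, Col1a1, Dcn and 4 others) summed to 938, 3470 and 3929 CPM in LLC tumor 1 to 3, to 414 in LLC blood 1, and to between 3.67 and 16.9 in the other 5 libraries. The 8 markers of LLC and epithelial cells summed to 63.4 to 102 CPM in LLC tumor and to at most 9.79 in blood, with Cldn4 and Prom1 at 0 in all tumor libraries. Of the 4 of them tested in LLC tumor against LLC blood, 3 rose, Cdh1 among them, and 1 fell (median log2 fold change 5.46). The 8 mature macrophage markers summed to 1306 to 1520 CPM in healthy blood, 731 to 768 in LLC blood and 1489 to 2320 in LLC tumor. Of these 8 markers, 6 rose in LLC tumor against LLC blood, C1qa, C1qc and Mrc1 among them, and 1 fell, with a median log2 fold change of 5.26 over the list (4.47 against healthy blood). The 6 platelet markers summed to 68.3 to 112 CPM in LLC tumor and to at most 16.0 in blood. Ppbp alone was at 110, 91.8 and 66.0 CPM in LLC tumor. Of the 4 platelet markers tested against LLC blood, Ppbp rose and 3 did not pass. The 7 neutrophil markers in the table summed to 207 to 242 CPM in LLC tumor and 506 to 581 in blood. In LLC blood against healthy blood, 2 of these 7 rose (Mmp8 and Ltf), 1 fell (Cd177) and 4 did not pass. Ltf was at 0.574, 22.9 and 9.37 CPM in LLC blood and at most 1.35 in healthy blood. The 10 T and NK cell markers in the table summed to 206 to 484 CPM in healthy blood, 37.0 to 52.1 in LLC blood and at most 15.9 in LLC tumor, and all 10 fell in LLC blood against healthy blood (median log2 fold change -3.25). The 8 erythroid markers summed to 168 to 921 CPM in the blood libraries and to at most 3.46 in LLC tumor, with Slc4a1 at 0 there. The 6 B cell markers in the table ran from 17.5 to 181 CPM in healthy blood, 10.5 to 13.8 in LLC blood and 1.72 to 1.95 in LLC tumor, where Cd79a, Ms4a1 and Fcmr were at 0. Sums of the 6 dendritic cell markers were 42.1 to 52.4, 21.3 to 32.3 and 5.60 to 9.22 CPM in the same order, and those of the 6 endothelial markers 4.90 to 6.63, 7.84 to 8.11 and 16.2 to 20.7 CPM. The part of these cells in the results below was not tested. In bulk RNA, fewer cells of a type and less RNA per cell cannot be told apart.

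Monocytes in the tumor carried far more glycolytic transcript than those in the blood of LLC mice, and less pentose phosphate transcript. Of the 38 genes, 33 (86.8%) passed the edgeR test at an adjusted p under 0.05 in LLC tumor against LLC blood, 25 higher and 8 lower. Among all genes tested, 61.3% passed, 29.6% higher and 31.7% lower. The members' median log2 fold change was 1.72, beside -0.03 over all genes. At least 2-fold changes were found for 23 members that were higher and 3 that were lower, where the share of all genes was 17.3% and 11.4%. The increase reached at least 4-fold in 17, against 10.9% of all genes, and these 17 include Eno2, whose blood counts lie next to the floor. Eno2 passed the filter on low counts only through the tumor libraries, and it is also among the 25 and the 23 higher members. In the CPM values themselves, 36 of the 38 had no overlap between the groups (25 higher, 11 lower), against 68.3% of all genes. Against healthy blood, 26 members were higher in LLC tumor and 7 were lower, where 66.5% of all genes passed (33.5% higher, 33% lower). Without LLC tumor 1, 37 members passed against LLC blood, 26 higher and 11 lower, where 67.1% of all genes passed (34.3% higher, 32.8% lower).

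In blood, the tumor-bearing state came with much smaller differences. LLC blood differed from healthy blood in 3 of the 38 members (7.89%), where 23.6% of all genes tested passed (14% higher, 9.61% lower): Gys1 and Pgm1 rose and Slc2a3 fell. At an unadjusted p under 0.05, 9 members passed, against 36.8% of all genes. The members' median log2 fold change was 0.15, beside -0.01 over all genes. The CPM ranges of the groups did not overlap for 26 members (22 higher, 4 lower in LLC blood), against 51.3% of all genes. The count of calls changed with the libraries in the fit: with only the 6 blood libraries it was 18 (14 higher, 4 lower), where 42.3% of all genes passed, and without LLC tumor 1 it was 17 (13 higher, 4 lower), where 39.4% passed. The fold changes themselves moved little, with Gapdh at 0.49 ± 0.06 in the 6-library fit (adjusted p = 0.000508) and at 0.50 ± 0.19 in the 9-library fit (adjusted p = 0.0878). Throughout, a log2 fold change is the edgeR estimate after TMM scaling. An adjusted p is from edgeR's quasi-likelihood test with Benjamini-Hochberg adjustment over all genes tested. The ± value is a standard error derived from that test, the absolute log2 fold change over the square root of the F statistic. CPM levels are scaled to library totals only. No transcript lengths were used, so a count ratio or share between genes also depends on their lengths. T and NK cell markers fell alongside these differences, as given above, and their part was not tested.

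**Figure D1:**
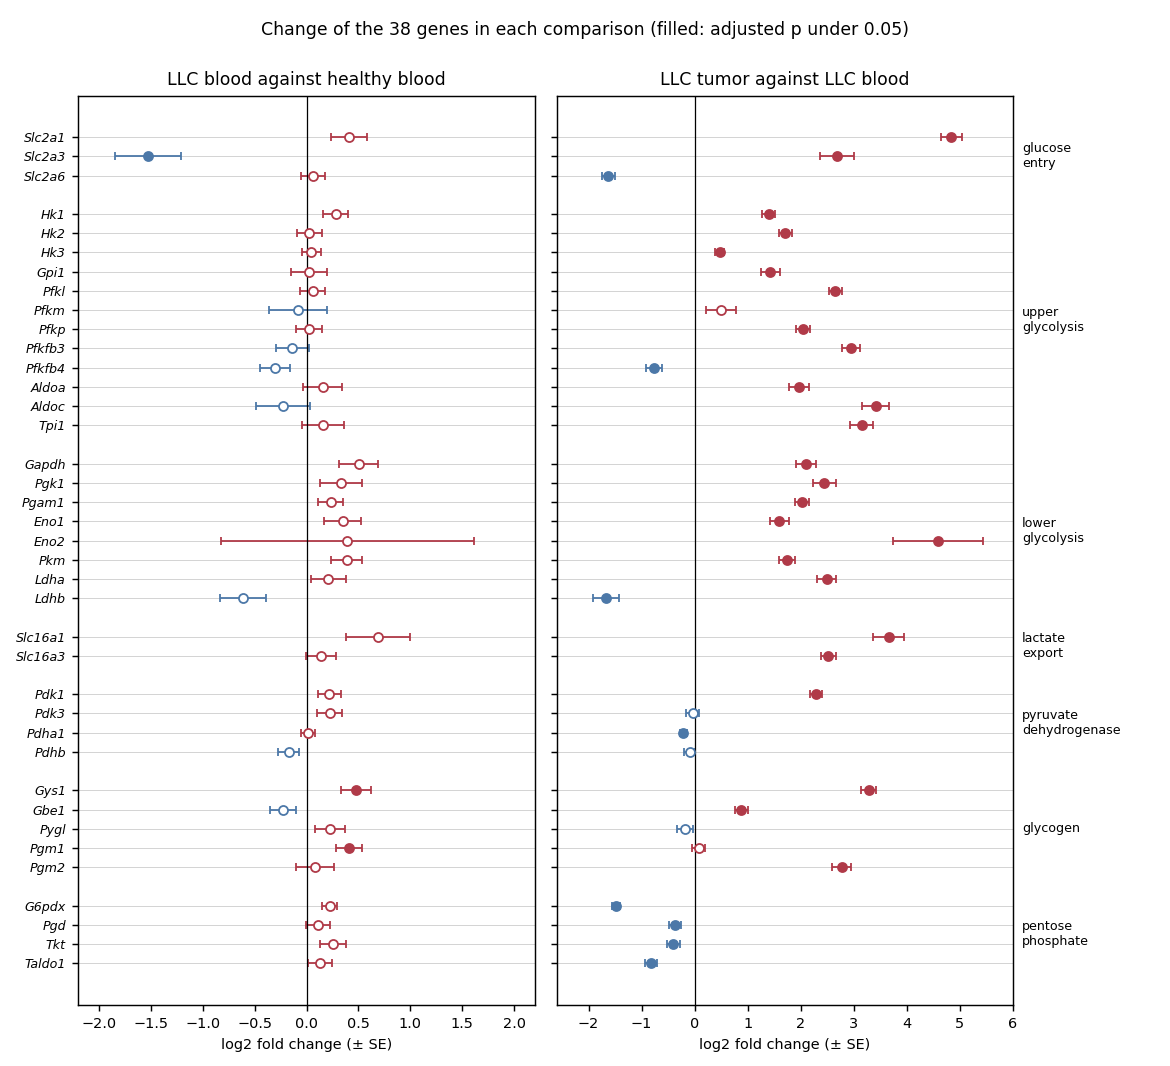
Log2 fold change (x axis, edgeR estimate) of the 38 genes in LLC blood against healthy blood (left) and LLC tumor against LLC blood (right). Bars are the standard error derived from the F statistic. Genes are grouped by role, with filled points for an adjusted p under 0.05 and the x axes on different scales. In the tumor comparison 25 filled points lie to the right of 0 and 8 to the left, the 4 pentose phosphate genes among these 8, and in the blood comparison 3 points are filled.

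Of the 3 glucose entry genes, 2 rose in LLC tumor and 1 fell. Slc2a1, which encodes the widely used glucose transporter GLUT1, was at 35.7, 38.03 and 39.3 CPM in healthy blood and at 48.8, 53.7 and 50.3 CPM in LLC blood. It reached 1445, 1087 and 1198 CPM in LLC tumor. The 3 groups did not overlap, and every tumor library lay far above all blood libraries. In LLC tumor Slc2a1 rose 28.5-fold (log2 fold change 4.83 ± 0.20, adjusted p = 2.08e-07), the largest estimate among the 38. In LLC blood its log2 fold change was 0.41 ± 0.17 (adjusted p = 0.118). Its promoter window is shown because no other member rose more, with each ACGTG or GCGTG in capitals, read on either strand (CACGT and CACGC on the other strand). These 5 letters are the core of the hypoxia response element, the site to which HIF binds. The window runs from 250 bases before the RefSeq transcription start to 50 after it, on chr4:119108495-119108794, plus strand, GRCm38.p6.
Slc2a1: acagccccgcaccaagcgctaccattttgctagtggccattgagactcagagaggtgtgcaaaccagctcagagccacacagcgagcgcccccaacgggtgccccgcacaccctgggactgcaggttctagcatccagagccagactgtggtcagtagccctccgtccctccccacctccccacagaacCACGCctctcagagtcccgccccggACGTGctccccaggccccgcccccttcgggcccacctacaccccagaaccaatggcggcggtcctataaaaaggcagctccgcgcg
It holds 2 matches, which begin 61 and 36 bases before the start.

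Slc2a3, the high-affinity neuronal-type transporter GLUT3, moved in both steps. Its level was 6.72, 12.9 and 13.2 CPM in healthy blood, at 3.63, 4.84 and 3.19 in LLC blood, and at 25.4, 16.8 and 21.9 in LLC tumor. It was thus lowest in the blood of LLC mice and highest in the tumor, with no overlap between any of the groups. The fall in LLC blood was 2.88-fold (log2 fold change -1.53 ± 0.32, adjusted p = 0.00897) and the rise in LLC tumor against LLC blood 6.43-fold (2.68 ± 0.33, adjusted p = 8.37e-05). Slc2a6, which encodes the transporter-like protein GLUT6 of intracellular membranes, went the other way. It was at 123, 132 and 137 CPM in healthy blood, at 164, 128 and 126 in LLC blood, and at 36.5, 44.9 and 36.1 in LLC tumor. The blood groups overlapped, while all tumor libraries were lower, a 3.10-fold fall against LLC blood (log2 fold change -1.63 ± 0.12, adjusted p = 4.54e-06). Counts of Slc2a1 were 0.287 to 0.290 times those of Slc2a6 in healthy blood, 0.298 to 0.421 times in LLC blood and 24.2 to 39.6 times in LLC tumor.

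**Figure D2:**
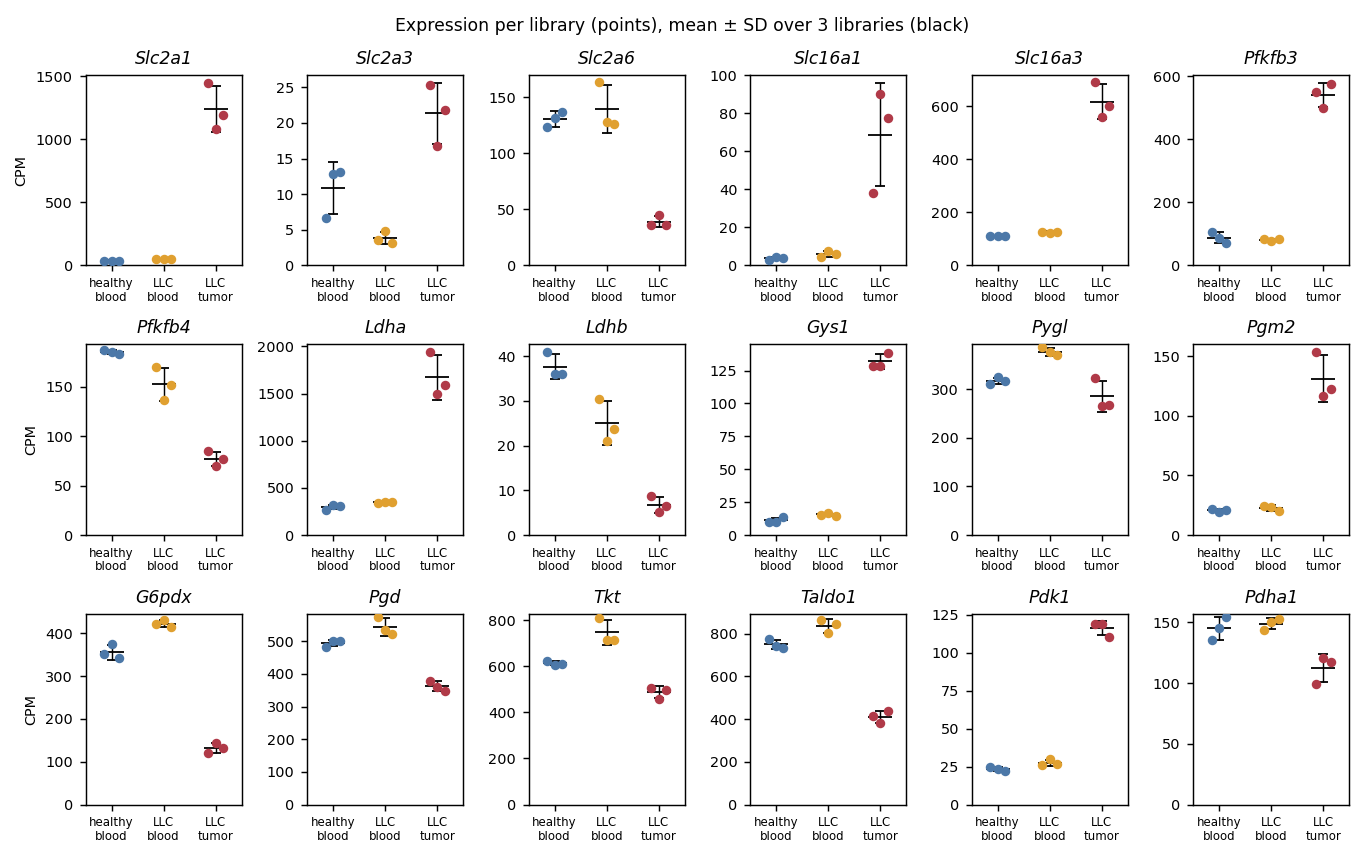
Level in CPM (y axis, from 0, each panel on its own scale) of 18 members in the 9 libraries, with points for libraries 1 to 3 of each group and black marks for the mean ± SD. Slc2a1, Slc16a3, Pfkfb3, Ldha, Gys1, Pgm2 and Pdk1 stood well above both blood groups in all 3 tumor libraries, while Slc2a6, Pfkfb4, Ldhb, G6pdx, Pgd, Tkt, Taldo1 and Pdha1 stood below. CPM is scaled to library totals, and Pgd and Tkt did not pass the edgeR test in LLC tumor against healthy blood.

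In upper glycolysis, which runs from glucose to the triose phosphates, 10 of 12 genes rose in LLC tumor against LLC blood, Pfkfb4 fell, and Pfkm did not pass. The hexokinases rose unequally. Hk2, the inducible hexokinase, went from 127, 120 and 117 CPM in LLC blood to 366, 328 and 331 in LLC tumor (log2 fold change 1.71 ± 0.12, adjusted p = 3.29e-06), and healthy blood was at 120, 115 and 117. Hk1, the housekeeping form, rose by 1.39 ± 0.12 on the log2 scale (adjusted p = 1.12e-05). Hk3, a form abundant in myeloid cells, was at 137, 129 and 116 CPM in LLC blood and at 148, 155 and 154 in LLC tumor, a rise of 0.47 ± 0.09 (adjusted p = 0.00147). Of the counts on the 3 genes, Hk3 took 36.0% to 38.1% in healthy blood, 34.0% to 36.3% in LLC blood and 18.9% to 21.5% in LLC tumor.

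Phosphofructokinase rose through its liver and platelet forms. Pfkl was at 54.5, 52.2 and 51.1 CPM in LLC blood and at 306, 275 and 274 in LLC tumor, 6.28-fold higher (log2 fold change 2.65 ± 0.13, adjusted p = 3.68e-07). Pfkp rose 4.10-fold (2.04 ± 0.13, adjusted p = 1.58e-06), to 361 to 414 CPM. The muscle form Pfkm was at 9.37, 6.57 and 8.31 CPM in LLC blood and at 4.69, 13.6 and 12.4 in LLC tumor, so that LLC tumor 1 lay below and the other 2 above all LLC blood libraries. Its log2 fold change was 0.50 ± 0.28 (adjusted p = 0.151), and 0.81 ± 0.17 without LLC tumor 1 (adjusted p = 0.00188). Pfkm took 3.96% to 5.40% of the family's counts in blood and 0.648% to 2.09% in LLC tumor.

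The 2 bifunctional enzymes that set the level of the main phosphofructokinase activator moved in opposite directions. Pfkfb3, whose product mostly makes that activator, was at 82.4, 78.9 and 83.0 CPM in LLC blood and at 551, 500 and 575 in LLC tumor, a 7.70-fold rise (log2 fold change 2.94 ± 0.17, adjusted p = 8.14e-07). Healthy blood, at 106, 86.0 and 71.4 CPM, overlapped with LLC blood. Pfkfb4 was at 187, 184 and 183 CPM in healthy blood, at 170, 136 and 151 in LLC blood and at 84.4, 70.2 and 76.6 in LLC tumor. Each group lay below the one before, and the fall from LLC blood to LLC tumor passed (log2 fold change -0.77 ± 0.14, adjusted p = 0.00124), while the difference between healthy and LLC blood did not (-0.31 ± 0.14, adjusted p = 0.149). The Pfkfb3 to Pfkfb4 count ratio was 0.391 to 0.569 in healthy blood, 0.486 to 0.578 in LLC blood and 6.53 to 7.50 in LLC tumor.

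The other upper steps also rose in the tumor. Gpi1, glucose-6-phosphate isomerase, rose 2.69-fold (log2 fold change 1.43 ± 0.18, adjusted p = 9.91e-05). Aldoa, the main aldolase gene, rose 3.91-fold (1.97 ± 0.19, adjusted p = 2.36e-05), and Aldoc, the brain-type aldolase, 10.7-fold from 2.03 to 2.42 CPM up to 24.4, 17.1 and 19.1 CPM (3.41 ± 0.25, adjusted p = 3.81e-06). Aldoa still held 98.9% of the counts of these 2 genes in each tumor library. Tpi1, triose-phosphate isomerase, was at 157, 160 and 154 CPM in LLC blood and at 1487, 998 and 1074 in LLC tumor (3.15 ± 0.22, adjusted p = 2.86e-06). It is the single-gene step with the largest rise, with all tumor libraries at several times the blood level and LLC tumor 1 the highest.

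In lower glycolysis, 7 of 8 genes rose in LLC tumor and 1, Ldhb, fell. Gapdh, glyceraldehyde-3-phosphate dehydrogenase, was at 188, 191 and 175 CPM in healthy blood, at 256, 283 and 262 in LLC blood and at 1192, 836 and 893 in LLC tumor. This gene, often used as a reference for expression, did not overlap between any of the groups and rose 4.28-fold in the tumor (log2 fold change 2.10 ± 0.20, adjusted p = 1.75e-05). Its counts were split with other loci in all 9 libraries, and it has many processed copies in the mouse genome, so its level here is uncertain. Pgk1, phosphoglycerate kinase, rose 5.44-fold (2.44 ± 0.21, adjusted p = 1.13e-05), from 358, 403 and 395 CPM to 2222, 1523 and 1611. Pgam1, phosphoglycerate mutase, rose 4.07-fold (2.02 ± 0.13, adjusted p = 1.39e-06). Pkm, the pyruvate kinase gene of most tissues, was at 1192, 1194 and 1161 CPM in healthy blood, at 1595, 1592 and 1535 in LLC blood and at 4997, 4177 and 4402 in LLC tumor. Its groups lay in that order with no overlap, and its tumor rise was 3.35-fold (1.74 ± 0.15, adjusted p = 1.23e-05).

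The promoter windows of 2 glycolytic enzymes whose genes rose more than the members' median are given together, Pgk1 because it holds matches and Tpi1 because it holds none, with ACGTG and GCGTG on either strand in capitals. Pgk1 lies on chrX:106186850-106187149, plus strand, and Tpi1 on chr6:124814109-124814408, minus strand, both on GRCm38.p6.
Pgk1: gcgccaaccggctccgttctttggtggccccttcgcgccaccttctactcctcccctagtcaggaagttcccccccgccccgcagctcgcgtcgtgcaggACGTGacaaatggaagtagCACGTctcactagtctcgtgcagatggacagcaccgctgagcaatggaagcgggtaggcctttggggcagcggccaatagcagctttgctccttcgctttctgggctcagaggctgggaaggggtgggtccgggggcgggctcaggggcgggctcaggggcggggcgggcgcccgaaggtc
Tpi1: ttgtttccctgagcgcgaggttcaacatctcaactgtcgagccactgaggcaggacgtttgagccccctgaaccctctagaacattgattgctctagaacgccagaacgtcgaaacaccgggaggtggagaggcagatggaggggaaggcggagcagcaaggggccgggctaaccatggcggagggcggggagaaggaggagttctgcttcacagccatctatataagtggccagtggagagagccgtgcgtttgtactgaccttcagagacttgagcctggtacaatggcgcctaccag
The 2 matches of Pgk1 begin 150 and 131 bases before the start.

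Enolase has a complication in this table. Eno1, the main enolase gene, rose 3.02-fold in LLC tumor against LLC blood (log2 fold change 1.59 ± 0.18, adjusted p = 5.41e-05). Counts of its near-identical copy Eno1b were 145 to 160 CPM in healthy blood, 22.1 to 25.9 in LLC blood and 50.3 to 66.3 in LLC tumor, and the authors' counting may have split reads between these genes. The sum of Eno1 and Eno1b was 967 to 1019 CPM in healthy blood, 1029 to 1189 in LLC blood and 2582 to 3347 in LLC tumor, so the tumor libraries were higher for the sum too. Eno2, the neuron-type enolase, had 2, 1 and 1 counts in healthy blood, 4, 1 and 0 in LLC blood, whereas LLC tumor had 11, 36 and 47. It was called higher in LLC tumor, but it passed the filter on low counts only through the tumor libraries. The blood libraries are at or next to the floor of 3 counts. Its call is therefore no support for a rise, and its fold is not given.

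Lactate dehydrogenase shifted between its 2 subunits. Ldha, the muscle-type subunit that favours lactate formation, was at 268, 313 and 304 CPM in healthy blood, at 341, 348 and 353 in LLC blood and at 1942, 1491 and 1586 in LLC tumor, a 5.62-fold rise over LLC blood (log2 fold change 2.49 ± 0.18, adjusted p = 3.29e-06). Ldhb, the heart-type subunit, was at 40.9, 35.9 and 36.0 CPM in healthy blood, at 30.5, 21.1 and 23.7 in LLC blood and at 8.67, 5.14 and 6.48 in LLC tumor, a 3.18-fold fall against LLC blood (-1.67 ± 0.24, adjusted p = 0.000273). None of the groups overlapped for either gene. In LLC blood Ldhb was at -0.61 ± 0.22 on the log2 scale (adjusted p = 0.0719). There were 6.56 to 8.71 counts of Ldha for each of Ldhb in healthy blood, 11.2 to 16.5 in LLC blood and 224 to 290 in LLC tumor. Ldha counts were split with other loci in all 9 libraries.

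The promoter windows of the 2 lactate dehydrogenase genes are set side by side because the genes moved in opposite directions. That of Ldha is the first of its 2 RefSeq windows, chr7:46845554-46845853, plus strand, and that of Ldhb is chr6:142507908-142508207, minus strand, both on GRCm38.p6 and written with ACGTG and GCGTG on either strand in capitals.
Ldha: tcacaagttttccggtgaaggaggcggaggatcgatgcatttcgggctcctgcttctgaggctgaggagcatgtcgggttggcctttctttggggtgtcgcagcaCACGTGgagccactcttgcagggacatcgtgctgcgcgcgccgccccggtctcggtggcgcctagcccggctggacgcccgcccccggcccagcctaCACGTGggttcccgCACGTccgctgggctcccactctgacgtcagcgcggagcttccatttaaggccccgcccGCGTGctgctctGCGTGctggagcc
Ldhb: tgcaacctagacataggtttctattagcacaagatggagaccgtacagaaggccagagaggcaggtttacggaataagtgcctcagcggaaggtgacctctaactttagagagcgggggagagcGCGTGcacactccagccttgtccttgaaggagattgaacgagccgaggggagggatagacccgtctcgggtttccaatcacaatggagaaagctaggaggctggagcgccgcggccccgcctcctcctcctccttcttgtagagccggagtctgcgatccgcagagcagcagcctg
The Ldha window holds 7 matches, of which 4 belong to 2 copies of the palindrome CACGTG, which reads ACGTG on both strands. The Ldhb window holds 1, which begins 126 bases before the start.

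**Figure D3:**
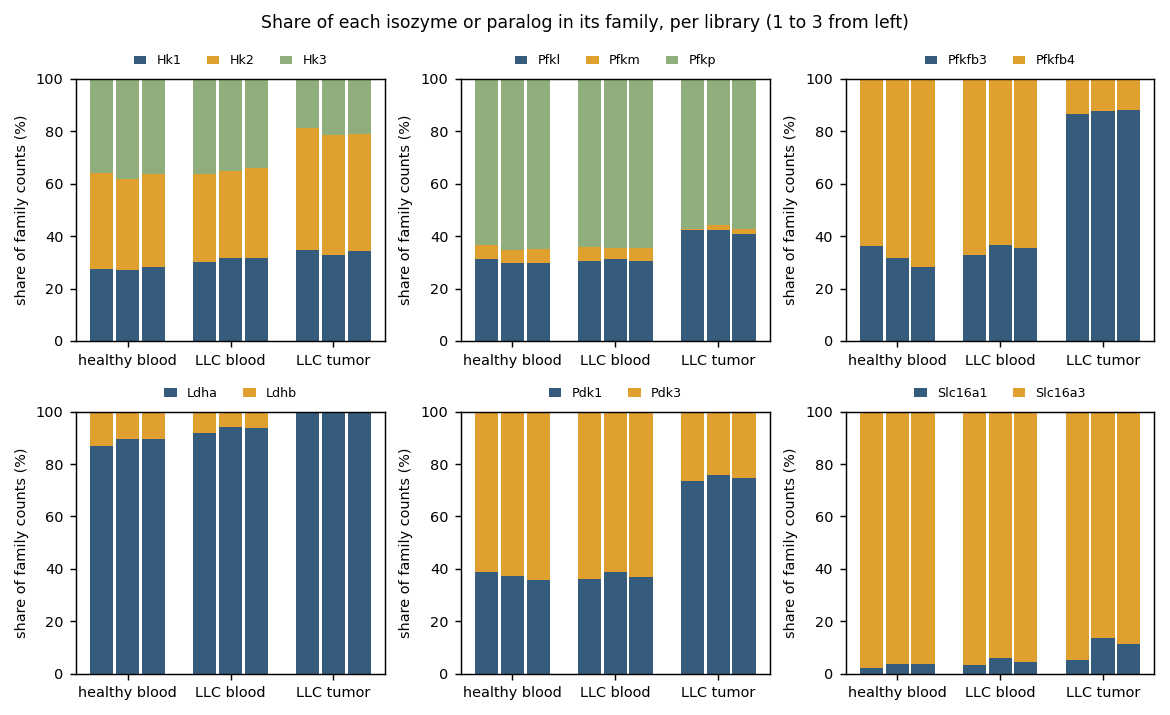
Share of the family's counts (y axis, percent, stacked to 100) taken by each member of 6 gene families in every library, with libraries 1 to 3 of each group from left to right. Pfkfb3 takes 86.7% to 88.2% of its pair in LLC tumor against 28.1% to 36.6% in blood, Ldha 99.6% to 99.7% against 86.8% to 94.3%, and Pdk1 73.7% to 75.9% against 35.7% to 38.8%.

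Both lactate exporters rose in the tumor. Slc16a3, which encodes MCT4, the carrier suited to lactate release, was at 111, 113 and 111 CPM in healthy blood, at 128, 121 and 127 in LLC blood and at 691, 561 and 599 in LLC tumor (5.74-fold, log2 fold change 2.52 ± 0.15, adjusted p = 1.12e-06). Slc16a1, which encodes MCT1, a carrier that works in both directions, was at 2.64, 4.30 and 4.11 CPM in healthy blood, at 4.30, 7.75 and 6.04 in LLC blood and at 38.3, 90.1 and 77.8 in LLC tumor. Its 12.6-fold rise (3.66 ± 0.29, adjusted p = 5.9e-06) was seen in every tumor library, although LLC tumor 1 was the lowest. LLC tumor 1 was the highest tumor library for 18 of the 25 genes that rose and the lowest for 4.
The window of Slc16a3, chr11:120948817-120949116, plus strand, GRCm38.p6, is shown for the exporter known for lactate release, marked in the same way.
Slc16a3: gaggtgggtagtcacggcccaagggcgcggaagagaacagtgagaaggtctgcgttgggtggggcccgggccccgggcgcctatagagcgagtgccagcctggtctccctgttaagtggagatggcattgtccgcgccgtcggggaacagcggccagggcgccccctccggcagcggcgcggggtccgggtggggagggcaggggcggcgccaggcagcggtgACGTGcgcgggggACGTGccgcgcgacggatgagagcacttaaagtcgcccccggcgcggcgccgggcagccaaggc
It holds 2 matches, which begin 27 and 14 bases before the start.

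With the members of each isozyme family added up, all 11 steps from hexokinase to lactate dehydrogenase had their lowest tumor library above the highest LLC blood library. Between these groups, 68.3% of all single genes tested had no overlap in either direction. The ratio of the mean CPM ran from 2.07 at hexokinase and 2.30 at the isomerase to 4.01 at phosphofructokinase, 4.51 at lactate dehydrogenase, 4.63 at phosphoglycerate kinase and 7.54 at triose-phosphate isomerase. These ratios rest on library totals, without TMM scaling, and so differ from the folds of single genes given above. Between healthy and LLC blood, 9 of the 11 steps had no overlap with LLC blood higher, at ratios of 1.03 to 1.44 over all steps. Of all single genes tested, 51.3% had no overlap there in either direction. In the edgeR test, 0 of the 12 upper and 0 of the 8 lower glycolysis genes passed between these blood groups. With Eno1b and Eno3, which are not members, added to the enolase step, it was at 1021 to 1079 CPM in healthy blood, at 1063 to 1239 in LLC blood and at 2593 to 3357 in LLC tumor, so that the blood groups overlapped (ratio 1.09) and the tumor stayed higher (2.51). Together the 18 enzyme genes made up 4661 to 4783 CPM in healthy blood, 5586 to 5862 in LLC blood, whereas LLC tumor reached 21392, 16554 and 17423, or 0.466% to 0.478%, 0.559% to 0.586% and 1.66% to 2.14% of all counts. These sums describe genes chosen with earlier results known and carry no test.

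**Figure D4:**
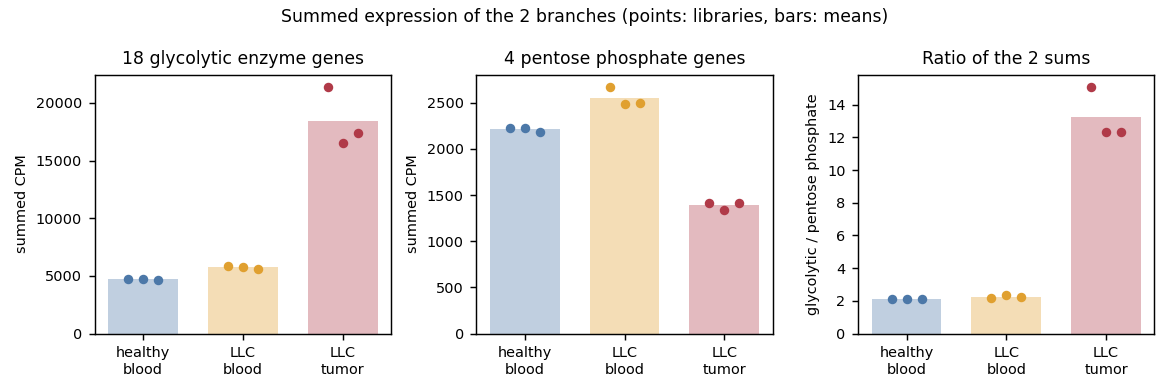
Summed level in CPM (y axis, from 0) of the 18 glycolytic enzyme genes and of the 4 pentose phosphate genes, and the ratio of these sums, with points for libraries and bars for group means. The glycolytic sum is 16554 to 21392 CPM in LLC tumor against at most 5862 in blood, the pentose phosphate sum 1343 to 1419 against at least 2186, and the ratio 12.3 to 15.1 against at most 2.34.

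At pyruvate dehydrogenase, which feeds pyruvate into the citric acid cycle, 1 of 4 genes rose in LLC tumor, a kinase, and 1 fell, a subunit of the enzyme. Pdk1, a kinase that switches pyruvate dehydrogenase off, was at 24.5, 23.3 and 21.9 CPM in healthy blood, at 26.3, 29.7 and 26.7 in LLC blood and at 119, 119 and 111 in LLC tumor (4.86-fold, log2 fold change 2.28 ± 0.11, adjusted p = 4.48e-07). Its relative Pdk3 was at 45.7 to 47.2 CPM in LLC blood and at 42.3, 37.7 and 37.3 in LLC tumor (-0.03 ± 0.12, adjusted p = 0.833). For each count of Pdk3 there were 0.555 to 0.633 of Pdk1 in blood and 2.80 to 3.15 in LLC tumor. Pdha1, the catalytic subunit, was at 144, 150 and 153 CPM in LLC blood and at 99.1, 120 and 118 in LLC tumor. Its fall was small (log2 fold change -0.21 ± 0.07, adjusted p = 0.0227) and missed the threshold with only the 6 libraries compared (adjusted p = 0.0526), with DESeq2-type factors in edgeR (adjusted p = 0.0676) and on leaving out LLC blood 3, LLC tumor 2 or LLC tumor 3. Pdhb, the partner subunit, was at -0.10 ± 0.11 (adjusted p = 0.456). Without LLC tumor 1, Pdk3 and Pdhb passed as lower, at -0.18 ± 0.06 (adjusted p = 0.0304) and -0.20 ± 0.07 (adjusted p = 0.0301).

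Of the 5 glycogen genes, 3 rose in LLC tumor (Gys1, Gbe1 and Pgm2) and the others did not pass. Gys1, the glycogen synthase of most tissues, was at 9.72, 10.0 and 13.4 CPM in healthy blood, at 15.6, 17.0 and 14.5 in LLC blood and at 129, 128 and 139 in LLC tumor. It is the member that rose in both steps, by 0.47 ± 0.14 on the log2 scale in LLC blood (adjusted p = 0.0400) and 9.70-fold from there to the tumor (log2 fold change 3.28 ± 0.14, adjusted p = 2.64e-07). Gbe1, the branching enzyme, was at 13.6, 11.5 and 12.5 CPM in LLC blood and at 16.8, 24.2 and 19.6 in LLC tumor, 1.84-fold higher (0.88 ± 0.13, adjusted p = 0.000285). Pygl, the phosphorylase that releases glucose from glycogen, was at 386, 376 and 369 CPM in LLC blood and at 322, 265 and 268 in LLC tumor. Its libraries did not overlap, but the TMM-scaled difference was -0.18 ± 0.14 (adjusted p = 0.295), and -0.37 ± 0.06 without LLC tumor 1 (adjusted p = 0.000446). The call of Gys1 in blood was lost on leaving out any of healthy blood 1, healthy blood 2, the 3 LLC blood libraries or LLC tumor 3, with adjusted p-values up to 0.169 over the alternatives.

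The phosphoglucomutases, which link glycogen to glycolysis, split. The entry named Pgm2 was at 24.6, 23.2 and 19.9 CPM in LLC blood and at 154, 117 and 123 in LLC tumor (6.81-fold, log2 fold change 2.77 ± 0.19, adjusted p = 2.22e-06). The entry named Pgm1 was at 45.7, 51.8 and 48.1 CPM in healthy blood, at 57.5, 69.9 and 69.4 in LLC blood and at 61.9, 57.0 and 60.3 in LLC tumor. It rose in LLC blood (0.41 ± 0.13, adjusted p = 0.0418) and did not pass in the tumor (0.07 ± 0.13, adjusted p = 0.63). The blood call of Pgm1 was lost on leaving out any of the 3 healthy blood libraries, LLC blood 2, LLC blood 3 or LLC tumor 3, with adjusted p-values up to 0.144 over the alternatives. RefSeq lists each of these names as an older name of the other gene. The authors' CPM values carry an Ensembl identifier for each entry, but these were not traced to a locus here. Which of the 2 enzymes each entry measures was therefore not settled here.

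The pentose phosphate branch went against glycolysis: all 4 genes fell in LLC tumor against LLC blood. G6pdx, which encodes the first and rate-limiting enzyme of the branch, was at 351, 375 and 341 CPM in healthy blood, at 422, 430 and 415 in LLC blood and at 120, 143 and 132 in LLC tumor. All LLC blood libraries were above and all tumor libraries below healthy blood. The tumor fall was 2.80-fold (log2 fold change -1.49 ± 0.07, adjusted p = 4.75e-07), and the blood difference was 0.22 ± 0.07 (adjusted p = 0.0527). Counts of its near-identical copy G6pd2 were at most 0.861 CPM.
The G6pdx window, chrX:74428831-74429130, minus strand, GRCm38.p6, is shown as that of the pentose phosphate gene with the largest fall, with the same letters in capitals.
G6pdx: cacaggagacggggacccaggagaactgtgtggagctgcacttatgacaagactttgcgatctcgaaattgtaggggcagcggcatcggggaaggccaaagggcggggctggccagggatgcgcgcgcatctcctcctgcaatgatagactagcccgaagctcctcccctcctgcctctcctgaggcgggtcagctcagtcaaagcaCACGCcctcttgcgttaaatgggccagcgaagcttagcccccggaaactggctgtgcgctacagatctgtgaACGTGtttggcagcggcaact
It holds 2 matches, the first beginning 43 bases before the start and the second 30 bases after it.

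Taldo1, transaldolase of the non-oxidative part, was at 865, 802 and 845 CPM in LLC blood and at 414, 381 and 437 in LLC tumor, a 1.76-fold fall (log2 fold change -0.82 ± 0.12, adjusted p = 0.000221). Pgd, which carries out the second NADPH-making step, went from 574, 534 and 521 CPM to 380, 361 and 349 (-0.37 ± 0.12, adjusted p = 0.0194). Tkt, transketolase, went from 811, 716 and 713 CPM to 505, 458 and 498 (-0.40 ± 0.12, adjusted p = 0.0169). The falls of Pgd and Tkt were modest, and both missed the threshold with only the 6 libraries compared (adjusted p = 0.0578 and 0.0539) and without LLC tumor 3, and Pgd also without LLC tumor 2. In healthy blood Pgd was at 483, 501 and 500 CPM, Tkt at 624, 607 and 611 and Taldo1 at 774, 743 and 734. LLC blood was thus the highest group in CPM for each of the 4 genes, but none passed the edgeR test against healthy blood. The log2 fold changes of Pgd, Tkt and Taldo1 in that test were 0.11 ± 0.11, 0.26 ± 0.12 and 0.13 ± 0.11 (adjusted p = 0.539, 0.164 and 0.445). Against healthy blood, G6pdx (-1.27 ± 0.07, adjusted p = 8.37e-07) and Taldo1 (-0.69 ± 0.12, adjusted p = 0.000582) were lower in LLC tumor in the edgeR test. Pgd (-0.26 ± 0.12, adjusted p = 0.0697) and Tkt (-0.15 ± 0.12, adjusted p = 0.307) did not pass there. The 4 genes summed to 2186 to 2231 CPM in healthy blood, 2482 to 2672 in LLC blood and 1343 to 1419 in LLC tumor. The glycolytic sum was 2.12 to 2.15 times this sum in healthy blood, 2.19 to 2.34 times in LLC blood, whereas the factors in LLC tumor 1 to 3 were 15.1, 12.3 and 12.3. The direction of the 25 higher and 8 lower members held under each of the 4 scalings tried. With library totals alone, the median log2 fold change of all genes was -0.23 and the 4 pentose phosphate genes lay at -1.68, -0.58, -0.61 and -1.03 (G6pdx, Pgd, Tkt, Taldo1).

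Other genes of the same pathways, from lists that do not hold the 38, showed that the rise did not extend to every related enzyme. In LLC tumor, where 31.7% of all genes were lower than in LLC blood, 7 of 8 further pentose phosphate genes tested fell. They included H6pd, the form of the first enzyme in the endoplasmic reticulum (log2 fold change -1.11 ± 0.09, adjusted p = 6.96e-06), Rpia, ribose-5-phosphate isomerase (-0.67 ± 0.10, adjusted p = 0.000285), and Prps2, which makes the ribose donor for nucleotides (-0.77 ± 0.12, adjusted p = 0.000346). In LLC blood, 1 of these 8 genes rose (H6pd, 0.44 ± 0.09, adjusted p = 0.00754) and 2 fell, Rpia among them (-0.30 ± 0.10, adjusted p = 0.0487). Among all genes tested, 14% were higher and 9.61% lower in LLC blood. The list's median was -0.72 in the tumor comparison and 0.05 in the blood comparison.

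Of 11 other glycolytic and gluconeogenic genes tested, 8 fell in LLC tumor, where 31.7% of all genes were lower. Eno3, the muscle-type enolase, went from 49.1, 29.5 and 33.7 CPM to 9.48, 8.16 and 14.2 (log2 fold change -1.61 ± 0.24, adjusted p = 0.000285), opposite to Eno1. Pck2, the mitochondrial enzyme that makes phosphoenolpyruvate, fell (-0.94 ± 0.18, adjusted p = 0.00143), as did Adpgk, an ADP-dependent glucokinase (-0.67 ± 0.16, adjusted p = 0.00465). Eno3 also fell in LLC blood (-0.70 ± 0.22, adjusted p = 0.0448), where Pfkfb2 rose (0.61 ± 0.13, adjusted p = 0.0106). The 2 other sugar transporters tested, Slc2a8 and Slc2a9, were at 0.11 ± 0.21 and -0.08 ± 0.13 in LLC tumor (adjusted p = 0.651 and 0.613).

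Among 10 further lactate and pyruvate genes tested, 3 rose and 5 fell in LLC tumor, where 29.6% of all genes were higher and 31.7% lower. Bsg, the chaperone that carries the lactate transporters to the cell surface, went from 145, 144 and 152 CPM to 508, 389 and 434 (log2 fold change 1.82 ± 0.16, adjusted p = 1.15e-05). Both subunits of the mitochondrial pyruvate carrier fell, with log2 fold changes of -0.40 ± 0.11 for Mpc1 (adjusted p = 0.0109) and -0.49 ± 0.13 for Mpc2 (adjusted p = 0.00751). Mpc2 had already fallen in LLC blood (-0.44 ± 0.12, adjusted p = 0.0279). Among 16 further glycogen genes tested, 3 rose and 5 fell in LLC tumor, and 6 rose in LLC blood, where 14% of all genes were higher. Ppp1r3b, which brings the phosphatase that activates glycogen synthase to glycogen, was at 9.50, 10.4 and 8.77 CPM in healthy blood, at 16.3, 17.8 and 20.4 in LLC blood and at 160, 203 and 202 in LLC tumor (3.56 ± 0.10, adjusted p = 7.49e-08 in the tumor comparison). Gyg, the primer glycogenin (-0.95 ± 0.11, adjusted p = 5.65e-05), and Phka2, a subunit of phosphorylase kinase (-1.08 ± 0.08, adjusted p = 4.61e-06), fell there. The genes that rose in LLC blood included Pygb, another phosphorylase (0.48 ± 0.08, adjusted p = 0.00374), and Phkb, a subunit of phosphorylase kinase (0.51 ± 0.09, adjusted p = 0.00463).

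Promoter windows were found in RefSeq for 37 of the 38 members, 51 windows in all, and Slc2a3 was not among them. At least one ACGTG on either strand was present in windows of 21 of these 37 genes (56.8%), against 21.8% of the 27025 genes in the table. It was present for 15 of the 24 members that rose in LLC tumor (62.5%), 1 of the 8 that fell (G6pdx) and all 5 that did not pass. With GCGTG added, the shares were 86.5% of the members and 46.7% of all genes, 79.2% of those that rose and 100% of those that fell. The 5 that rose without either match were Tpi1, Gpi1, Gys1, Gbe1 and Eno2. The E-box CACGTG, which contains ACGTG, was present for 10.8% of the members and 8.09% of all genes, and the antioxidant response core TGACNNNGC for 18.9% and 13.99%. These are matches of letters in windows of 300 bases, which say nothing of binding in these cells.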

How the data were processed

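Per the labels' protocols, RNA of sorted cells was made into TruSeq libraries. The authors deposited a table of estimated counts by gene symbol, not normalized, in which 8.56% to 9.73% of the values per library were not whole. A second deposited table gives CPM values with Ensembl identifiers for 10693 genes. The submitters' processing notes name the build mm10 and STAR 2.6.1d, Salmon 1.9.0, Trim Galore 0.6.4 and edgeR among other tools, without saying which made these tables. The blood columns carry the letters BM, read as blood monocyte from the sample titles; the values were not used to tell this from the other reading, bone marrow. Estimated counts can split reads between near-identical genes: 11 of the 38 members had counts that were not whole in at least 1 library and 5 in all 9 (Pfkp, Aldoa, Gapdh, Ldha, Pdha1).

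After rounding, edgeR 4.0.16 (R 4.3.3) fitted all 9 libraries with TMM scaling and no term but the group. Of 18544 genes with a count, filterByExpr left 12337. P-values were adjusted by Benjamini-Hochberg within each comparison, and genes were called at an adjusted p under 0.05. Floors and depth cover counting error only. The script was tested on simulated data. Alternatives were other scalings, filters and thresholds, DESeq2 1.42.0, limma-voom (limma 3.58.1), fits on 6 libraries, a replicate block, and leaving out each library. Whole reads recovered from the CPM table (100% whole within 0.01, 88.8% to 91.7% of the counts) gave 2584 called genes for the blood groups and 6792 for tumor and blood of LLC mice, of 10520 tested. For the 10693 genes of that table, these reads equal the rounded estimated counts in 100% of the values of every library. That fit therefore differs from the main one only in the genes included, and says nothing on how reads were split. That alternative was chosen after seeing the data. The libraries of a group differed by more than sampling noise, so none was counted as a duplicate.

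All 38 members are named. From the other pathway lists, at most 3 called genes per list and comparison with a mean of at least 20 CPM are named, those with the largest change, and the 2 tested sugar transporters were added after their values were seen. One gene that this rule names is not reported here. The members and the lists were chosen with earlier results of these data known. Promoter windows come from RefSeq (GRCm38.p6, the assembly also called mm10).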

Additional observations from a re-analysis of the deposited data

How the results depend on the processing

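Slc2a3 in LLC blood against healthy blood and 29 of the 33 calls in LLC tumor against LLC blood passed under all 19 alternative fits. Among these fits, the one on whole reads recovered from the CPM values used the same rounded counts on fewer genes. Eno2 passed under the 18 in which it was tested: the filter of at least 1 CPM in at least 3 libraries removed it, which left 32 calls. No called member changed direction. The calls lost in some were Gys1 and Pgm1 in blood (7 fits each) and Pdha1 (5), Pgd (3) and Tkt (2) in the tumor. The count of members called in blood moved most. It was 12 with library totals only (10 higher, 2 lower), 7 with DESeq2 (5 and 2), 20 with limma-voom (15 and 5), 18 with only the 6 libraries compared (14 and 4) and 4 with upper-quartile factors (2 and 2), where 22.6%, 28%, 47.7%, 42.3% and 26.1% of all genes passed. It was 1 at an adjusted p under 0.01 (0 higher) and 1 with a log2 fold change of at least 1 (0 higher). Leaving out 1 library gave 1 to 17 calls in blood (0 to 13 higher, 1 to 4 lower), with 17 without LLC tumor 1 and 6 without LLC tumor 2. Over these fits, 11.7% to 39.4% of all genes passed in blood. In LLC tumor against LLC blood, 5 members were lower with only the 6 libraries compared, 5 at an adjusted p under 0.01 and 3 with a log2 fold change of at least 1. The shares of all genes that were lower were 27.6% with the 6 libraries and 11.4% with that fold change. Leaving out 1 library gave 30 to 37 calls in this comparison (25 to 26 higher, 5 to 11 lower), with 5 lower without LLC tumor 3. Of all genes, 54.4% to 67.1% passed in these fits. Against healthy blood 4 members were lower in LLC tumor with a log2 fold change of at least 1. Leaving out 1 library gave 31 to 37 calls (26 to 27 higher, 5 to 10 lower), where 60.5% to 73.3% of all genes passed. The cause of these shifts was not tested. Among all called genes, 59.4% were higher in LLC blood with TMM and 46.3% with upper-quartile factors, and 48.3% were higher in LLC tumor than in LLC blood with TMM and 36.3% with library totals only.

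The labels do not say that libraries with the same number share a mouse. Deviations from the group means of same-numbered blood libraries correlated at 0.29, 0.19 and 0.07, and those of LLC tumor and LLC blood at -0.10, 0.10 and -0.14. With the number as a replicate block, 3 members were called in blood (1 higher, 2 lower), where 22.6% of all genes passed. Of these 3, Slc2a3 was called without the block too, while Gys1 and Pgm1 missed the threshold with it. The calls in the tumor were those without the block, where 60.4% of all genes passed with it.

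Members that changed sign were not called. With upper-quartile factors these were, in blood, Hk2 (-0.028), Hk3 (-0.0067), Gpi1 (-0.030), Pfkp (-0.027) and Pdha1 (-0.039), with limma-voom Slc2a6 (-0.024), Pfkp (-0.0075) and Eno2 (-0.62), and Pdha1 also with DESeq2-type factors (-0.00056) and DESeq2 (-0.000038). On leaving out 1 library the log2 fold change in blood ran from -0.058 to 0.13 for Slc2a6, -0.047 to 0.049 for Hk2, -0.0074 to 0.11 for Hk3, -0.052 to 0.076 for Gpi1, -0.19 to 0.050 for Pfkm, -0.027 to 0.049 for Pfkp, -0.27 to 0.024 for Pfkfb3, -1.34 to 1.16 for Eno2, -0.040 to 0.060 for Pdha1 and -0.028 to 0.16 for Pgm2. In LLC tumor against LLC blood, Pdk3 was at 0.027 with DESeq2-type factors and 0.025 with DESeq2, and Pgm1 at -0.14 with library totals only and -0.070 with limma-voom. On leaving out 1 library, Pdk3 ran from -0.18 to 0.056, Pdhb from -0.20 to 0.0062 and Pgm1 from -0.036 to 0.17.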

Other observations

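Of 14 regulators of hypoxia and glucose sensing, all tested, 6 rose and 4 fell in LLC tumor against LLC blood. Among all genes tested, 29.6% were higher there and 31.7% lower. Egln3, a HIF prolyl hydroxylase and itself a known HIF target, was at 2.58 to 3.79 CPM in healthy blood, at 2.75 to 5.55 in LLC blood and at 519, 406 and 447 in LLC tumor (log2 fold change 7.20 ± 0.30, edgeR adjusted p = 2.09e-07). Hif1a, the hypoxia-regulated HIF subunit gene, was at 137, 153 and 163 CPM in LLC blood and at 897, 863 and 819 in LLC tumor (2.72 ± 0.15, adjusted p = 6.46e-07). Myc, a transcription factor of growth and metabolism, was at 4.40, 1.87 and 1.59 CPM in LLC blood and at 41.9, 78.3 and 72.8 in LLC tumor (4.88 ± 0.35, adjusted p = 3.09e-06). No blood library overlapped with a tumor library for these 3 genes.

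In LLC blood against healthy blood, 1 of the 14 rose and 2 fell, where 14% of all genes were higher and 9.61% lower. Txnip, an inhibitor of glucose uptake that is induced by glucose, was at 1298, 1029 and 1014 CPM in healthy blood and at 706, 567 and 716 in LLC blood (-0.77 ± 0.24, adjusted p = 0.0435). It was at 379, 248 and 258 CPM in LLC tumor. Arnt, the constant HIF partner, rose in LLC blood by 0.31 ± 0.07 (adjusted p = 0.00936).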
